A study of Mus musculus with 10 samples.

Results

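Of 18128 genes measured in the inflamed synovium of mice with collagen antibody-induced arthritis, 10 regulators of messenger RNA decay are described here: the roquins Rc3h1 and Rc3h2, the endonuclease Zc3h12a, the tristetraprolin family Zfp36, Zfp36l1 and Zfp36l2, and the TOB and BTG proteins Tob1, Tob2, Btg1 and Btg2. Their probe sets were taken by name: the platform annotation gave 27 probe sets that name 1 of these genes alone, and each gene is represented by the probe set with the highest mean over the 10 arrays. Rc3h1 and Tob2 were chosen with their scores for maslinic acid against vehicle known, so their values in that contrast are a description and carry no test. The other 8 genes joined as their relatives, and the question was whether they followed.

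In the maslinic acid group, 5 male DBA/1J mice took the olive triterpene maslinic acid orally in corn oil, at a daily dose of 200 mg/kg. In the vehicle group, 5 male DBA/1J mice were given corn oil alone. All 10 mice were labelled as 8 weeks old, were injected with 1 mg of an antibody to type II collagen on day 8 and with 25 µg of lipopolysaccharide on day 11, and were killed on day 12, so that arthritis was induced in the vehicle mice too. Each mouse gave 1 Affymetrix array of synovial RNA, the mice had been selected from larger groups by a rule that no source used here states, and untreated mice were not analysed here.

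Messenger RNAs for cytokines are short-lived because proteins bind their untranslated ends and bring in enzymes that remove the poly(A) tail or cut the message. Roquins recognise stem-loops, tristetraprolin and its relatives recognise AU-rich elements, and Zc3h12a (regnase-1) cuts stem-loop messages itself. TOB and BTG proteins carry no such sequence preference of their own and tie the CCR4-NOT deadenylase to the poly(A)-binding protein or to other binders. Mice that lack tristetraprolin develop inflammatory arthritis driven by TNF, and mice with a mutant roquin-1 develop a lupus-like disease.

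The start regions of 4 of the genes are shown to set the start of each gene that was picked beside those of relatives known as early-response genes. They are the 250 bases before the transcription start in RefSeq on GRCm38.p6, which held such a window for 9 of the 10 genes (all but Zfp36l2). Rc3h1 (chr1:160906161-160906410, plus strand) and Tob2 (chr15:81858327-81858576, minus strand) were the genes picked by the contrast, Zfp36 (chr7:28379229-28379478, minus strand) encodes tristetraprolin itself, and Btg2 (chr1:134079156-134079405, minus strand) is a gene induced by p53 and growth signals. Each is printed 5′ to 3′ along the gene, and capitals mark matches on either strand to an AP-1 site (TGACTCA), a CRE (TGACGTCA), a CCAAT box, a TATA motif (its letters are TATAAA) or a CArG box.
Rc3h1: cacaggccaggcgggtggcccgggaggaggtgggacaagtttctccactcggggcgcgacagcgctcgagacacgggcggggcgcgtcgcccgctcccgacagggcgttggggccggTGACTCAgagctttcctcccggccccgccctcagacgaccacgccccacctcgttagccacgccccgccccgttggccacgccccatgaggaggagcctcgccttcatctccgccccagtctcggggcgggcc
Tob2: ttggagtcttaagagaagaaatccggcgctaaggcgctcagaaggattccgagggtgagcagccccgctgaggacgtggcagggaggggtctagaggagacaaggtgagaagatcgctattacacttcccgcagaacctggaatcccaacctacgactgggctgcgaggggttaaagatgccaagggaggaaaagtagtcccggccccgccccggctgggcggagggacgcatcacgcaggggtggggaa
Zfp36: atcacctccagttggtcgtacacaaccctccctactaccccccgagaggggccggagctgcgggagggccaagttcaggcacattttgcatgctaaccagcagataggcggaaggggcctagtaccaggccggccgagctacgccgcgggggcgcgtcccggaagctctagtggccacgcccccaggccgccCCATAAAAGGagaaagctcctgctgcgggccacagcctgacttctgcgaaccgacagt
Btg2: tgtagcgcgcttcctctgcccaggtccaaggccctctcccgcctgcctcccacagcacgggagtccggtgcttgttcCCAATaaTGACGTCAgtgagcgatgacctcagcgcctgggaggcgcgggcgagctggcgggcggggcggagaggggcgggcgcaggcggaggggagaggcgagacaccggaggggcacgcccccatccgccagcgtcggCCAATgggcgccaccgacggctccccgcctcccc
Rc3h1 had a match to the AP-1 site, found in 4.46% of 32851 RefSeq windows of the same length, and Tob2 had no match to any of these 5 motifs. Zfp36 had the CArG box (1.47% of windows), and Btg2 had the CRE (1.55%) and 2 CCAAT boxes (33.8%). Of the other 5 windows, those of Zfp36l1, Tob1 and Btg1 had both a CCAAT box and a TATA box (12.4% of windows), which overlap by 1 base in Zfp36l1, and those of Rc3h2 and Zc3h12a had none of the 5 motifs. GC boxes (GGGCGG, 32.7% of windows, not in capitals) stood in 7 of the 9 windows, those of Rc3h1 (5 matches), Tob2 (2) and Zfp36 (1) among them. No window of the 9 held the hexamer of the glucocorticoid response element (AGAACA, 16.1% of all windows), the E-box (CACGTG, 6.02%) or the NF-kB site (3.9%), each searched on both strands.

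Values of the deposited table are called scores here, since their scale is unknown. They look like log2 intensities, with a median of 6.74, but 93.5% of probe sets differed by less than 0.001 over the 10 arrays, so that a difference between groups is not a log2 fold change. Single values are given below as millionths of a score unit above or below the vehicle mean of the gene, and 1 millionth is the last of the 6 decimals deposited. The size of a contrast is Hedges' g, which is the maslinic acid mean less the vehicle mean, divided by the pooled SD of the 5 arrays in each group and corrected for small samples. Intervals after a g are 95% confidence intervals, which for Rc3h1 and Tob2 take no account of how these genes were picked. Across the table limma found 0 probe sets at an adjusted p under 0.05 (0% of those tested, lowest adjusted p = 0.147), with 3617 at an unadjusted p under 0.05. The exact Wilcoxon test gave 0 and 2741. Its smallest possible p with 5 arrays per group is 0.00794, which can hardly pass adjustment over all probe sets, so its 0 adds no support. Vehicle replicates 3 and 5 had the lowest array weights in limma (0.458 and 0.339, the other arrays 0.857 to 2.01), and results are also given without them. In bulk synovium, fewer cells of a type and less RNA per cell cannot be told apart.

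Rc3h1 encodes roquin-1, which carries target messages to the deadenylase. Its single probe set stood at 6.4, 18.4, 14.4, 13.4 and 14.4 millionths in the 5 maslinic acid mice (replicates 1 to 5), against 0.4, 3.4, -1.6, -2.6 and 0.4 millionths in the 5 vehicle mice. The groups did not overlap, and maslinic acid replicate 1 was nearest to the vehicle range. The means were 13.4 ± 4.4 and 0.0 ± 2.3 millionths (SD, n = 5 each), and g was 3.47 (95% CI 1.43 to 5.45). The difference is thus about 13 steps of the last decimal, and the gene held 8 distinct values over the 10 arrays.

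Tob2 encodes an antiproliferative adaptor between poly(A)-binding protein and the deadenylase. Its representative probe set stood at 935, 829, 925, 1332 and 917 millionths in maslinic acid mice, against 259, -25.6, -167, 370 and -438 millionths in vehicle mice. Here too the groups were apart, at distances far above the rounding step, and maslinic acid replicate 4 was the highest array. The means were 988 ± 197 and 0.0 ± 326 millionths, with g = 3.31 (1.34 to 5.23). Groups that do not overlap, with maslinic acid higher, were found for 0.645% of all genes, and since Rc3h1 and Tob2 were picked by this contrast nothing is read from that share.

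**Figure D1:**
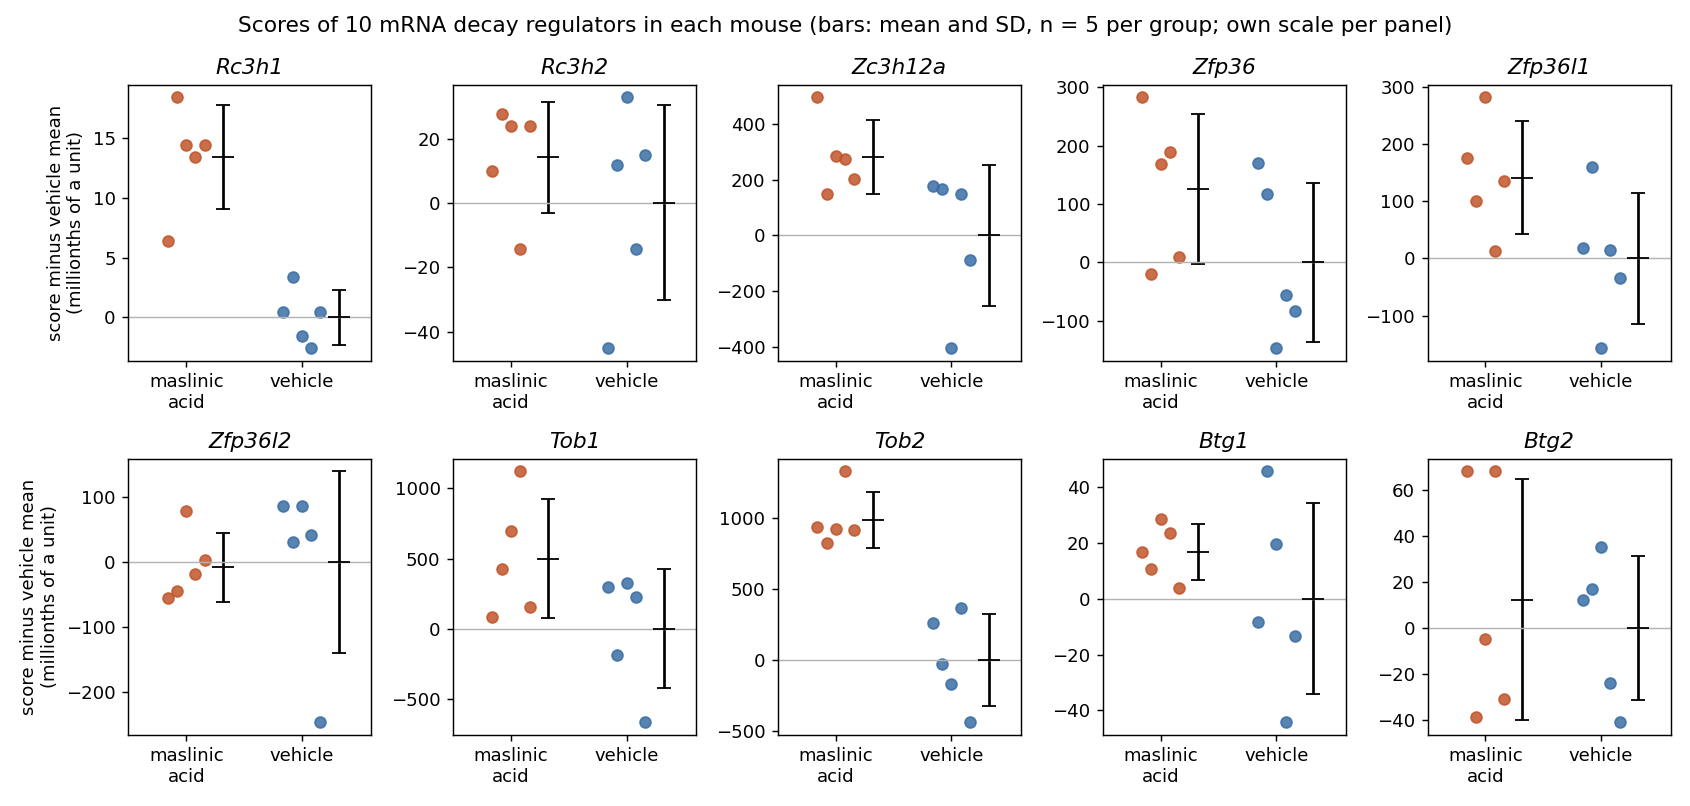
Score of each gene in each mouse, in millionths of a score unit above or below the gene's vehicle mean (y axis, own scale per panel), for 5 maslinic acid mice (left) and 5 vehicle mice (right); bars give mean and SD. The groups are apart for Rc3h1 (centred arrays turn its difference to -21.0 and quantile normalization to -245 millionths) and for Tob2, and overlap for the other 8 genes.

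The groups overlapped in all 8 relatives, as they did in most genes. Of the 8, 7 had a higher mean with maslinic acid on the deposited scores, against 48.1% of all genes. With arrays centred on their medians 4 of 8 did, against 14.9% of all genes. After quantile normalization 2 of 8 did, with 4 lower, Zfp36l1 equal and Btg1 constant, against 32.6% of the genes that were not constant. Their median g was 0.73, against 0.00 for all genes, and ran from -0.06 (Zfp36l2) to 1.26 (Zc3h12a). Of the 8, 3 had a g above 1 (Zc3h12a, Zfp36l1 and Tob1), against 9.24% of all genes. None reached an unadjusted p under 0.05 in limma, where 8.88% of genes did, and their adjusted p-values over all probe sets lay between 0.550 and 0.981. Groups that do not overlap were found for 0.645% of all genes with maslinic acid higher and for 0.734% with it lower. Neither the overlap in all 8 nor the absence of an unadjusted p under 0.05 in limma thus sets the relatives apart from other genes. In the exact permutation test Zc3h12a had an unadjusted p of 0.0238. Without vehicle replicates 3 and 5, g was 1.21 for Rc3h2, 0.94 for Zc3h12a, 0.34 for Zfp36, 0.72 for Zfp36l1, -1.14 for Zfp36l2, 0.89 for Tob1, 0.60 for Btg1 and 0.20 for Btg2, while Rc3h1 was at 2.86 and Tob2 at 3.43.

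Rc3h2, roquin-2, shares its RNA-binding fold and many targets with roquin-1. Its representative probe set stood at 9.8, 27.8, 23.8, -14.2 and 23.8 millionths in maslinic acid mice, against -45.2, 11.8, 32.8, -14.2 and 14.8 millionths in vehicle mice. A vehicle array was the highest of all 10, and the difference of 14.2 millionths was close to that of Rc3h1, but the spread was wider (SD 17.3 with maslinic acid and 30.3 with vehicle). The g was 0.52 (-0.64 to 1.65, limma adjusted p = 0.783, exact permutation p = 0.405, two-sided).

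Zc3h12a had the highest g among the relatives, at a mean score of 6.43, which is below the table's median of 6.74. It stood at 496, 149, 284, 275 and 204 millionths in maslinic acid mice, against 179, 167, -406, 148 and -88.8 millionths in vehicle mice. Of the maslinic acid arrays, 4 lay above the highest vehicle array, and vehicle replicate 3 was far below the rest. The g was 1.26 (-0.04 to 2.51), with limma adjusted p = 0.550 and an unadjusted exact permutation p of 0.0238. It was 1.68 with centred arrays and 1.31 after quantile normalization. A second probe set of this gene, with 6 distinct values, pointed the other way (g = -1.37, and 0.15 after quantile normalization) over a difference of -2.2 millionths.

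The tristetraprolin family was higher in 2 of its 3 members on the deposited scores, which after quantile normalization turned in Zfp36 and came to 0 in Zfp36l1. Zfp36 itself, the decay factor of Tnf messages, stood at 283, -20.4, 169, 189 and 8.6 millionths in maslinic acid mice, against 170, 117, -147, -55.4 and -83.4 millionths in vehicle mice. The groups were mixed, and g was 0.86 (-0.36 to 2.03, adjusted p = 0.647, exact permutation p = 0.167). Zfp36l1 stood at 176, 101, 281, 13 and 135 millionths with maslinic acid, against 18, 160, -157, 14 and -35 millionths with vehicle. It had g = 1.20 (-0.09 to 2.43, adjusted p = 0.565, exact permutation p = 0.0873), with vehicle replicate 2 above 3 of the maslinic acid arrays. Zfp36l2, which with Zfp36l1 guards lymphocyte development, ran from -55.8 to 78.2 millionths with maslinic acid and from -247 to 87.2 with vehicle. Its g was -0.06 (-1.18 to 1.06, adjusted p = 0.981), and without vehicle replicate 5, the lowest array by far, it was -1.38.

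Tob1, the closest relative of Tob2, stood at 86.2, 428, 695, 1121 and 158 millionths in maslinic acid mice, against 295, -184, 323, 229 and -664 millionths in vehicle mice. The 3 highest arrays were of the maslinic acid group, while its other two arrays fell among the vehicle values. The g was 1.06 (-0.20 to 2.27, adjusted p = 0.591, exact permutation p = 0.119), 0.94 with centred arrays and 0.19 after quantile normalization. Btg1, an antiproliferative partner of the deadenylase in resting lymphocytes, ran from 3.8 to 28.8 millionths with maslinic acid and from -44.2 to 45.8 with vehicle, so that the vehicle range enclosed all maslinic acid arrays (g = 0.60, -0.57 to 1.74, adjusted p = 0.744). Without single arrays its g ran from 0.26 to 1.34, and the mean of its 3 probe sets had a g of 0.03. Btg2 ran from -38.8 to 68.2 millionths with maslinic acid and from -40.8 to 35.2 with vehicle (g = 0.26, -0.88 to 1.38, adjusted p = 0.897).

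Genes with several probe sets show how far a direction depends on the probe set. For Tob2, 3 of 5 probe sets separated the groups completely, with differences of 988, 1956 and 126 millionths and g of 3.31, 3.18 and 5.37. After quantile normalization the first 2 of these kept their direction (2.24 and 1.74) and the third turned (-1.53). The remaining pair, with 7 distinct values each, differed by 1.8 and -1.0 millionths. The probe sets at 3.31 and 3.18 are of the array maker's x and s types, which can share probes with other transcripts. Of the 7 probe sets of Rc3h2, 2 were higher and 5 lower with maslinic acid on the deposited scores, and all 7 were lower with centred arrays and after quantile normalization. The second probe sets of Zfp36l1 (g = 0.19), Zfp36l2 (-1.21) and Tob1 (0.42) had the sign of the representative one, but that of Zfp36l1 turned with centred arrays (-0.31) and after quantile normalization (-0.96), and that of Tob1 with centred arrays (-0.25).

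Btg1 and Btg2 were also split between their probe sets on the deposited scores. Of 3 for Btg1, one that was not its representative stood at -88.2 to -29.2 millionths in maslinic acid mice and at -36.2 to 50.8 in vehicle mice (g = -1.77, limma adjusted p = 0.485, and 0.05 after quantile normalization), while the other two were at 0.60 and 1.05 (-0.18 and 0.18 with centred arrays; after quantile normalization constant and -0.93). This was the only probe set with an unadjusted limma p under 0.05 among the 21 of the relatives, against 3617 of the 39768 tested in the whole table. The count thus does not set the relatives apart. Of these 21, 11 were higher and 10 lower on the deposited scores, against 44% higher among all probe sets. With centred arrays 5 were higher and 16 lower, and after quantile normalization 5 were higher, 14 lower and 2 equal or constant. Shares of all genes with a higher mean, at 1 probe set each, were 14.9% and 32.6% under these scalings. Btg2 was at 0.26 in one probe set and -0.75 in the other. Both were lower with centred arrays (-0.22 and -0.84) and after quantile normalization (-1.13 and -0.47).

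**Figure D2:**
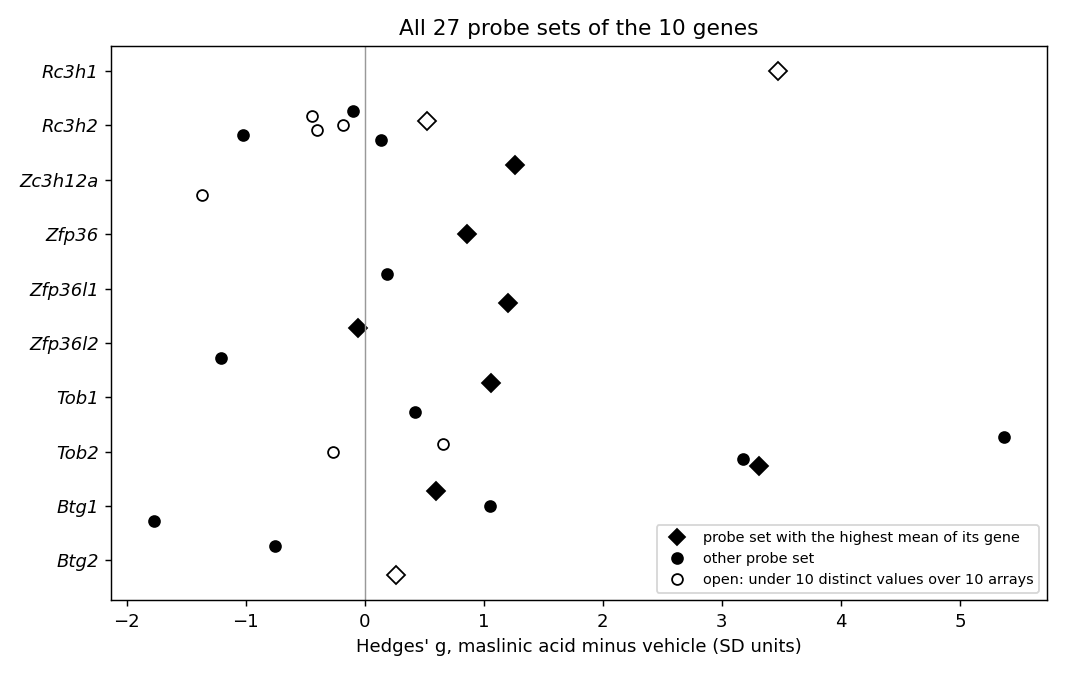
Hedges' g of maslinic acid minus vehicle (x axis, SD units) for each of the 27 probe sets, by gene; diamonds are the representative probe sets, and open symbols held under 10 distinct values. For Tob2, 3 probe sets lie at 3.18 to 5.37 on the deposited scores, of which the one at 5.37 turns to -1.53 after quantile normalization, and the 7 of Rc3h2 lie between -1.02 and 0.52.

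The direction of Rc3h1 changed with the normalization and that of the Tob2 representative did not. The medians of the arrays themselves differed by -179 to 93.4 millionths from their mean, and the maslinic acid arrays were on average 34.4 millionths above the vehicle arrays. Centring takes this 34.4 from every difference, so that those of Rc3h1 (13.4), Rc3h2 (14.2), Btg1 (16.8) and Btg2 (12.4 millionths) turned negative by construction, at -21.0, -20.2, -17.6 and -22.0 millionths. Those of Tob2 (954 millionths after centring), Tob1 (463), Zc3h12a (247), Zfp36l1 (107) and Zfp36 (91.2) stayed positive. Centring left 14.9% of all genes with a higher mean, and quantile normalization 32.6%.

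Quantile normalization gives the value of a rank, and at the level of Rc3h1 neighbouring probe sets of an array lay 114 millionths apart (median gap), or far more than the difference of 13.4 between its groups. After it Rc3h1 differed by -245 millionths (g = -1.18), Rc3h2 by -239 (-1.08) and Btg2 by -283 (-1.13). Zfp36 was at -95.7 millionths (-0.38), Tob1 at 103 (0.19), Zc3h12a at 309 (1.31) and Tob2 at 607 (2.24). Btg1, at a level where the gap was 1154 millionths, had the same value on all arrays after this step. Tob2, Tob1 and Zc3h12a were thus higher with maslinic acid under all 3 scalings, as deposited, centred and quantile normalized. Groups of Tob2 did not overlap on the deposited scores, but Tob2 was picked by this contrast. The separation therefore does not set Tob2 apart from Tob1 and Zc3h12a.

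**Figure D3:**
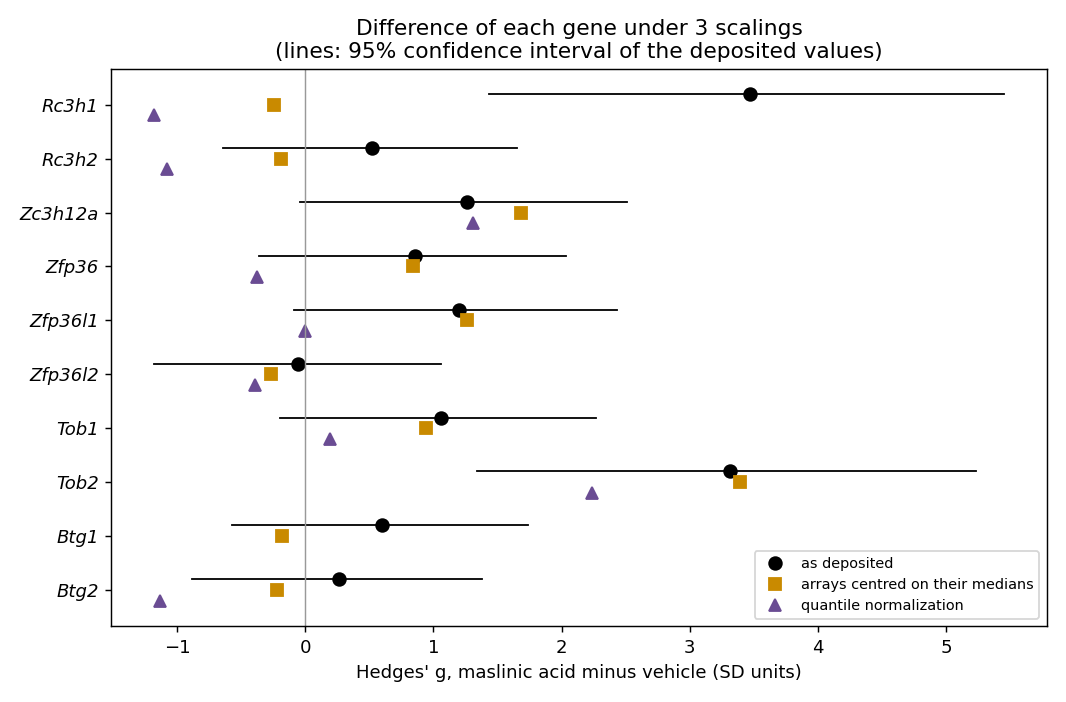
Hedges' g of maslinic acid minus vehicle (x axis, SD units) for each gene on the deposited scores (circles, with 95% confidence interval), with arrays centred on their medians (squares) and after quantile normalization (triangles; none for Btg1, which was constant). Rc3h1 goes to -0.24 and -1.18, while Tob2 stays at 3.39 and 2.24.

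Whether the relatives follow Rc3h1 or Tob2 was also read from mouse to mouse inside the groups, which does not use the contrast. Deviations of the 10 arrays from their group means were correlated in 17 relations. With Rc3h1, the 9 other genes gave Pearson's r between -0.54 (Btg2; Spearman's rho = -0.59, permutation p = 0.192 for r and 0.118 for rho) and 0.28 (Btg1), with 0.19 for Rc3h2 (rho = 0.32, permutation p = 0.539 and 0.348) and -0.19 for Tob2 (rho = -0.30, permutation p = 0.563 and 0.392). In limma with Rc3h1 as a term, 0 probe sets passed (0%), and the adjusted p of all 9 genes was 1.00. Without maslinic acid replicates 1 and 2, the arrays farthest from the median of Rc3h1, r was -0.01 with Btg2 and 0.12 with Rc3h2, and over the 9 genes it ran from -0.46 (Tob1) to 0.68 (Btg1). Without vehicle replicates 3 and 5 it ran from -0.85 (Zc3h12a) to 0.38 (Rc3h2), and after quantile normalization from -0.20 (Zc3h12a) to 0.58 (Btg2, whose sign turned). Rc3h1 varies within groups by only a few steps of the last decimal, which limits what these correlations can show. With centred arrays, where the subtracted median makes up most of its variation, r was 0.97 with Rc3h2, 0.96 with Btg1, 0.86 with Btg2 and -0.78 with Zc3h12a, the lowest of the 9, and limma with Rc3h1 as a term called 35299 probe sets.

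Tob2 varied with Tob1 and against Rc3h2. With Tob1, r was 0.73 (rho = 0.45, permutation p = 0.0254 for r and 0.233 for rho, limma adjusted p = 0.164), 0.60 without the 2 arrays farthest from the median of Tob2 (vehicle replicate 4 and maslinic acid replicate 4) and 0.79 without vehicle replicates 3 and 5. It was 0.77 with centred arrays and 0.47 after quantile normalization. However, 8.51% of all genes had an r with Tob2 at least as high. With Rc3h2, r was -0.79 (rho = -0.86, permutation p = 0.0185 and 0.00958, limma adjusted p = 0.111), -0.76 without those 2 arrays, -0.21 with centred arrays and -0.34 after quantile normalization, and 96.4% of genes had a higher r. Both relations thus failed the adjustment over all probe sets.

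Among the relatives themselves the highest r was that of Zc3h12a with Zfp36, at 0.80 over the 10 arrays, followed by Tob1 with Zfp36l2 (0.70), Zc3h12a with Zfp36l1 (0.66) and Zfp36 with Btg2 (0.61). Zc3h12a and Zfp36 are both messages that inflammatory signals induce within hours. Rc3h2 varied against both of them (-0.66 and -0.64). These values share the arrays and their scaling and are given as a description.

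**Figure D4:**
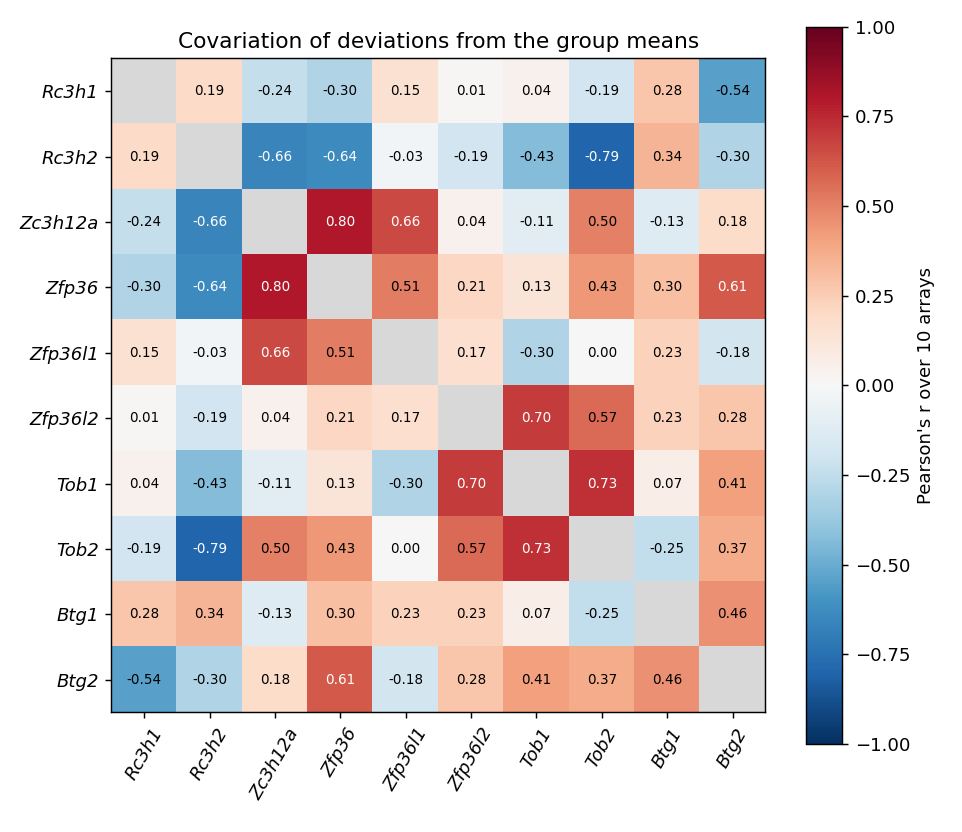
Pearson's r between the deviations of the 10 arrays from their group means, for each pair of genes (colour and number); the diagonal is left grey. Zc3h12a with Zfp36 (0.80) and Tob1 with Tob2 (0.73) are the highest, and Rc3h2 with Tob2 (-0.79) is the lowest.

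The genes most like Tob2 inside the groups, among 6742 with 10 distinct values, were Foxk1, a forkhead transcription factor (r = 0.98), Sec24a, a cargo adaptor of COPII vesicles (0.98), and Eif4g3, a scaffold of translation initiation (0.97). With Tob2 as a term, limma called 5 of all probe sets (0.0126%), which were those 3 (adjusted p = 0.0237, 0.0283 and 0.0320) and, named after their values were seen, Cox15 (0.0283) and Tmem129 (0.0320). None of the 5 was called with centred arrays, after quantile normalization or without vehicle replicates 3 and 5, and the count was 0 without vehicle replicate 1, 4 or 5 or maslinic acid replicate 5, 5 without maslinic acid replicate 2, 2 without maslinic acid replicate 3, 12 and 17 without vehicle replicates 2 and 3, and 131 and 164 without maslinic acid replicates 4 and 1. The genes most like Rc3h1, among 6743, were Pkp2 (r = 0.88), Snx7 (0.87) and Tmie (0.83), each with a limma adjusted p of 1.00.

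Of the 46 measured enzymes and partners of deadenylation, decapping and the exosome, 26 had higher and 20 lower means with maslinic acid on the deposited scores. With centred arrays 9 were higher and 37 lower, and after quantile normalization 5 were higher, 40 lower and 1 constant. Of all genes, 48.1% were higher as deposited, 14.9% with centred arrays and 32.6% (of those not constant) after quantile normalization. List counts here and below are to be read beside these shares. Together with cofactors, further family members, other AU-rich element binders and target messages, 101 genes were measured, of which 56 were higher, 44 lower and 1 equal as deposited. With centred arrays 23 of the 101 were higher, after quantile normalization 19 (75 lower, 7 equal or constant) and without vehicle replicates 3 and 5 33, and 0 passed the test in limma. Unadjusted, 6 higher genes had a p under 0.05, against 4.31% of all genes, and 4 lower ones did, against 4.56%. Of the CCR4-NOT complex 6 of 11 measured members were higher (median g = 0.10), 4 with centred arrays and 2 after quantile normalization. Its ubiquitin ligase Cnot4 ran from 58.6 to 177 millionths in maslinic acid mice and from -103 to 117 in vehicle mice (g = 1.6, 0.21 to 2.93, adjusted p = 0.487, and 0.04 after quantile normalization), and the deadenylase Cnot8 had g = -1.13 over a difference of -2.0 millionths. Cnot1, the scaffold of the complex, had no probe set that names it alone.

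Of the other deadenylases and poly(A)-binding proteins, 6 of 6 had higher means on the deposited scores (median g = 0.45), but 1 with centred arrays and 1 after quantile normalization (4 lower, 1 constant). They were led by the ribonuclease Parn at 1.41, over a difference of 4.0 millionths with 6 distinct values. Parn was at -0.72 after quantile normalization and -0.35 with centred arrays. Of the decapping genes 9 of 16 were higher (median g = 0.31), 3 with centred arrays and 1 after quantile normalization. Pnrc1, a decapping coactivator, separated the groups, with 52.4 to 103 millionths in maslinic acid mice and -64.6 to 43.4 in vehicle mice (g = 1.81, 0.35 to 3.19, adjusted p = 0.485), but was at -0.57 after quantile normalization. It was named for the lowest p among the higher genes of this list. Groups that do not overlap, with maslinic acid higher, were found for 0.645% of all genes. Lsm4, of the ring that binds deadenylated ends, was at -1.41. Of the exosome genes 5 of 13 were higher (median g = -0.19), 1 with centred arrays and 1 after quantile normalization. Dis3l was at 1.58 (-0.29 after quantile normalization, -0.36 with centred arrays), over a difference of 3.2 millionths with 7 distinct values, and Exosc8 was at -1.42.

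Among cofactors and regulators of the 10 genes, 9 of 13 were higher (median g = 0.21), 3 with centred arrays and 2 after quantile normalization, where 8 were lower and 3 constant. Dusp1, the phosphatase that shuts off p38 and so lifts its brake on tristetraprolin, stood apart between the groups, with 1058 to 1801 millionths in maslinic acid mice and -1613 to 892 in vehicle mice (g = 1.65, 0.25 to 2.99, limma adjusted p = 0.485). It was at 1.72 with centred arrays and 1.23 after quantile normalization. Dusp1 was named for the lowest p among the higher genes of this list. Groups apart in this direction were found for 0.645% of all genes. The p38 kinase gene Mapk14 had the lowest p of the lower ones (g = -0.48, and 0.36 after quantile normalization). Further family members were higher in 3 of 4 (median g = 0.38), 0 with centred arrays and 2 after quantile normalization, with Zc3h12c at 0.91 (-0.34 with centred arrays) and Btg4 at -0.18. Other proteins that bind AU-rich elements were higher in 5 of 8 (median g = 0.36), 3 with centred arrays and 1 after quantile normalization (6 lower, 1 constant). Among them Celf1 was at 0.66, which turned with centred arrays (-0.19) and after quantile normalization (-1.13). Ybx1, the constant one, was at -1.50 over a difference of -2.6 millionths, with 6 distinct values.

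Messages that these factors are known to bind were higher in 14, lower in 16 and equal in 1 of 31 (median g = -0.09), with 9 higher and 21 lower with centred arrays and 10 higher and 19 lower after quantile normalization. Il6, a target of Zc3h12a, ran from -101614 to 37215 millionths in maslinic acid mice, with a median of -72166, and from -110931 to 201835 in vehicle mice, with a median of -71151 (g = -0.48, -1.61 to 0.68, limma adjusted p = 0.800). Tnf, the classical target of tristetraprolin, ran from -26.6 to 3.4 millionths in maslinic acid mice and from -35.6 to 23.4 in vehicle mice (g = -0.45, -1.58 to 0.70, adjusted p = 0.807). Cxcl1, a neutrophil-attracting chemokine, was at 0.28 (-0.86 to 1.40, and -0.06 after quantile normalization), and Ptgs2, the inducible cyclooxygenase, at -0.62 (-1.76 to 0.55). The lowest p of the list was that of the urokinase gene Plau, at -4.2 to -2.2 millionths in maslinic acid mice and -1.2 to 2.8 in vehicle mice (g = -2.13, -3.61 to -0.57, adjusted p = 0.466, with g = -0.43 with centred arrays and -0.08 after quantile normalization), a difference of -3.2 millionths, where groups that do not overlap, with maslinic acid lower, were found for 0.734% of all genes. The lowest p among its higher genes was that of Dusp1, which this list shares with the regulators. Mean scores of Il6 (6.38), Ptgs2 (6.21) and Plau (6.2) were below the table's median of 6.74, and those of Tnf (7.0) and Cxcl1 (7.77) above it.

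**Figure D5:**
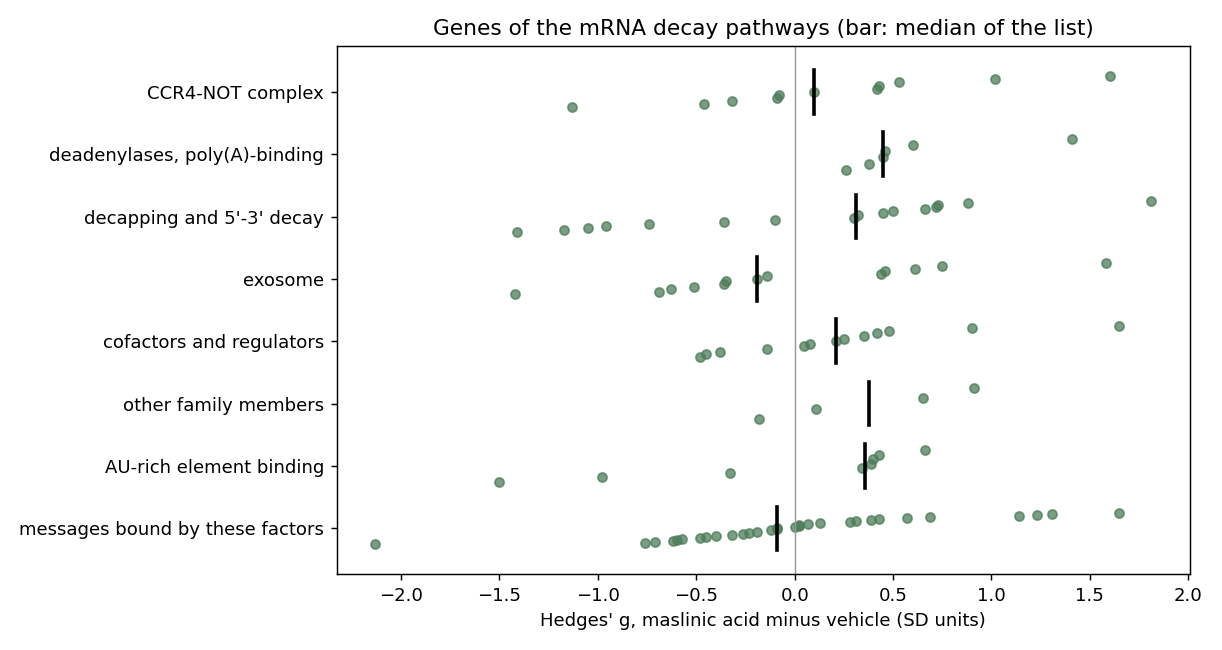
Hedges' g of maslinic acid minus vehicle on the deposited scores (x axis, SD units) for the measured genes of 8 lists around messenger RNA decay; each point is a gene and each bar the median of its list. List medians lie between -0.19 (exosome) and 0.45 (deadenylases and poly(A)-binding proteins) on the deposited scores. Over all lists the genes with higher means number 56 of 101 as deposited (48.1% of all genes), 23 with centred arrays (14.9%) and 19 after quantile normalization (32.6%).

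Cell type markers are given beside these values, as counts of genes with a higher mean and as the mean of the list's values in SDs per gene. Neutrophil markers were higher with maslinic acid in 0 of 5 (0 with centred arrays, and after quantile normalization 1 higher, 2 lower and 2 constant). Their list means were -0.88 to -0.17 in maslinic acid mice and -0.06 to 1.12 in vehicle mice. However, the 2 constant markers, S100a8 and S100a9, held 2 distinct deposited values each and differed by -0.2 and -0.4 millionths. They entered the list mean at the same weight as the others. Those were Cxcr2 (g = -2.71, limma adjusted p = 0.415), Csf3r (-1.89, 0.473) and Mmp8 (-0.57, 0.759). With centred arrays their g was -2.3, -1.98 and -0.56, and after quantile normalization -0.52, -1.53 and 0.33. Platelet markers were lower in 4 of 4, also with centred arrays, and in 3 after quantile normalization, which left 1 constant (-1.29 to 0.05 in maslinic acid mice and -0.4 to 1.62 in vehicle mice), and T cell markers were higher in 1 of 6, 0 with centred arrays and 3 after quantile normalization (-0.99 to 0.57 and -0.03 to 0.64). Of 9 markers of synovial lining and fibroblasts, 8 were higher, 7 with centred arrays and 7 after quantile normalization (-0.15 to 0.86 and -0.67 to 0.12), and Prg4, the lubricin of the lining, had a mean score of 11.55. Macrophage markers were higher in 4 of 6 under each scaling (-0.47 to 0.79 and -0.99 to 0.37). Muscle markers were higher in 8 of 8, 8 with centred arrays and 3 after quantile normalization, which left 5 constant (-0.75 to 0.99 and -1.74 to 0.75). Bone markers were higher in 3 of 3, 3 with centred arrays and 1 after quantile normalization, which left 2 constant (0.16 to 1.0 and -1.71 to 0.26). The B cell (1 of 3 higher), adipocyte (4 of 4), cartilage (5 of 5) and endothelial (4 of 4) lists had list means that overlapped between the groups, and with centred arrays they had 0, 4, 5 and 2 higher and after quantile normalization 0, 3, 4 and 2, with 1 adipocyte marker constant. The part of these cell types in the values of the 10 genes was not tested.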

How the data were processed

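Total RNA of the synovium of the left hind leg was labelled from 100 ng and hybridised to 1 Affymetrix array per mouse, and replicate numbers come from the sample titles. The deposited values are scores of unknown scale: per the submitters' processing notes the authors used R 3.2.1, and how background, normalization and probe set summary were handled is not given in the sources used here. All 39993 probe sets and all 10 columns were used. The platform annotation named 1 gene for 34202 probe sets, several for 931 and none for 4860; symbols were updated by Entrez identifier against RefSeq. The number of arrays limits the precision.

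Maslinic acid was compared with vehicle with limma 3.58.1 under R 4.3.3 (lmFit, then eBayes) on the scores as deposited, over all probe sets, two-sided, with Benjamini-Hochberg adjustment and a threshold of 0.05. Exact permutation tests used all 252 assignments of the arrays (smallest p 0.00794), and correlations all 14400 permutations within groups. On simulated data with 39993 probe sets of this comparison, limma recovered 6% of 50 probe sets shifted by 2 SD and 66% of 50 shifted by 4 SD; larger shifts of 6 and 8 SD gave 94% and 100%, with 12 false calls in all. The genes, lists and tests were chosen with earlier results of these data known. Named were all 10 genes and the gene of lowest p in each direction of each list around messenger RNA decay. The 3 most like Rc3h1, the 3 most like Tob2, and Tnf, Il6, Ptgs2, Cxcl1 and Cnot1 were also named. This rule was not applied to the marker lists, of which only Prg4 and the measured neutrophil markers were named. Python 3.11.15 with scipy 1.17.1 and matplotlib 3.10.9 made tables and figures.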

Additional observations from a re-analysis of the deposited data

Results flagged for a closer look

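Among 20 groups of 5 arrays (10 genes, 2 groups), 2 held an array far from the others by Dixon's ratio, whose limit for 5 samples is 0.71; chance flags about 1 in 20 groups. For Tob2, maslinic acid replicate 4 was the highest array, and its gap to the next took 0.789 of the group's range. For Zfp36l2, vehicle replicate 5 was the lowest, with a ratio of 0.832.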

How the results depend on the processing

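In limma, 0 probe sets passed under quantile normalization, centring, trended and robust eBayes, array weights, the replicate block, both filters, adjustment over 1 probe set per gene and without vehicle replicates 3 and 5, and 0 to 1 without single arrays (1 without maslinic acid replicate 1). Of the 8 relatives, 7 had a higher mean (48.1% of all genes), 4 with centred arrays (14.9%), 2 after quantile normalization (32.6%) and 6 to 8 without single arrays. Quantile normalization turned Rc3h1 (g = -1.18), Rc3h2 (-1.08), Zfp36 (-0.38) and Btg2 (-1.13); centring turned Rc3h1 (-0.24), Rc3h2 (-0.19), Btg1 (-0.18) and Btg2 (-0.22). Averaging each gene's probe sets turned Rc3h2 (-0.15) and Btg2 (-0.60), and taking the probe set of most distinct values turned Btg2 (-0.75). Without single arrays Zfp36l2 ran from -1.38 to 0.12, Btg2 from -0.03 to 0.55, Rc3h1 from 3.15 to 5.94 (5.94 without maslinic acid replicate 1), Tob2 from 3.01 to 3.98, Rc3h2 from 0.14 to 0.89, Btg1 from 0.26 to 1.34, Zc3h12a from 1.04 to 1.44, Zfp36 from 0.62 to 1.23, Zfp36l1 from 0.97 to 1.76 and Tob1 from 0.83 to 1.28. Without vehicle replicates 3 and 5, Rc3h1 was at 2.86 and Tob2 at 3.43. Positive correlations with Rc3h1 numbered 5 of 9, 6 with centred arrays, 7 after quantile normalization (where Btg1 was constant) and 3 to 5 without single arrays. With Tob2 they numbered 5 of 9, 5 with centred arrays, 5 after quantile normalization and 4 to 6 without single arrays. Decay pathway genes with higher means numbered 56 of 101 (48.1% of all genes), 23 with centred arrays (14.9%) and 19 after quantile normalization (32.6%). They numbered 33 without vehicle replicates 3 and 5 and 46 to 63 without single arrays. The causes of these shifts were not tested beyond the arithmetic of centring. Deviations of same-numbered arrays of the groups had r from -0.38 to 0.32. This cannot decide whether the numbers pair mice, since a pairing need not leave such a correlation, and no pairing is stated. With the replicate block Rc3h1 was at 3.59, Tob2 at 4.37, 7 of 8 relatives were higher and 0 probe sets passed. Rounding limits genes whose values differ by a few millionths, and with 5 arrays per group shifts of 2 SD were mostly out of reach. Btg1 was constant after quantile normalization, the filter on 10 distinct values left out Rc3h1, Rc3h2 and Btg2, and the filter on level left out Zc3h12a.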
